A study of Mus musculus with 6 samples.

Results

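The genes described here encode the proteins of the cytosolic ribosome. They were chosen by symbol: Rpsa, Rplp0 to Rplp2, and every gene named Rpl or Rps with a number and at most one further letter a, l or x, without the Rps6k kinases and without pseudogenes. This gave 59 genes of the 19929 genes that have a probe with 1 gene symbol on the array, 22 of the small and 37 of the large subunit. Where a gene has several probes, the one with the brightest average signal stands for it.

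The RNA came from CD8 T cells with the AI4 receptor, a transgenic antigen receptor for a beta cell antigen, sorted from mouse pancreas with a CD8 antibody and the MimA2/H-2Db tetramer. The 3 AI4 arrays hold cells from AI4 mice, which had developed type 1 diabetes. The 3 Rip-B7xAI4 arrays hold cells from AI4 mice that also carry Rip-B7x, a transgene for the inhibitory ligand B7x under the rat insulin promoter, and that were resistant to the disease. Both groups have the C57BL/6.H2g7/g7 background, and pancreata were pooled before sorting; ages and pool sizes were not stated in the sources. The transgene on beta cells and the disease state go together, so their effects on the T cells cannot be told apart.

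Ribosomal proteins coat a core of ribosomal RNA, and nearly all are present in 1 copy in each ribosome, so cells make them in matched amounts. Their messages belong to the TOP class, which begins with a C and a run of pyrimidines and is translated when mTORC1 is active. Naive T cells hold few ribosomes and build many when antigen activates them, and Myc drives much of that synthesis. Some ribosomal proteins also act outside the ribosome: free Rpl5 and Rpl11 bind Mdm2 and so stabilise p53, and Rps27l is itself a target gene of p53.

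The start regions of 7 members are printed. Of the 12 members described below for the smallest p in each direction, 9 have an entry, and these 7 differ most between the groups; each is shown at its first listed start. Each window runs from 50 bases before to 10 bases after the transcription start in RefSeq (build GRCm38.p6), in the direction of transcription. Capitals mark CTTTC, a core of the pyrimidine run, on the strand printed. They also mark CCGGAA or its reverse complement TTCCGG, the letters that Ets factors bind, on either strand. Overlapping matches are written as 1 stretch.
Rps27l, chr9:66946036-66946095, plus strand: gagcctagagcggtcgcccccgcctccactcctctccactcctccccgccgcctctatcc
Rps10, chr17:27635235-27635294, minus strand: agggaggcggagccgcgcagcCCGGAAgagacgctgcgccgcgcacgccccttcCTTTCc
Rpl10a, chr17:28328421-28328480, plus strand: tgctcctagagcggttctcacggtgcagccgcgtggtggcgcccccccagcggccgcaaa
Rpl36a, chrX:134585604-134585663, plus strand: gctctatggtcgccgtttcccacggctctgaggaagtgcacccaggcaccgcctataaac
Rpl7a, chr2:26910757-26910816, plus strand: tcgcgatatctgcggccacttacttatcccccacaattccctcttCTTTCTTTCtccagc
Rpl27, chr11:101442195-101442254, plus strand: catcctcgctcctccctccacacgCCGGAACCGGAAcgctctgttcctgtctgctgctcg
Rpl14, chr9:120571467-120571526, plus strand: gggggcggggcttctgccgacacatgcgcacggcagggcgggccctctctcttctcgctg

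Of the 59 members, 47 had a start region in that table, with 56 entries in all because some genes have several starts. Read in the direction of transcription, CTTTC stood in the 60-base window of 14 of these 56 entries (25.0%), against 8.21% of all 32851 entries. Its reverse complement GAAAG stood there in 2 of 56 (3.57%), against 6.94% of all. CCGGAA or TTCCGG was found in 10 of the 56 windows (17.9%, against 5.66% of all) and in 25 of the 56 whole regions of 300 bases (44.6%, against 14.9%). The window of Rps27l held neither set of letters. These counts describe the letters in the windows, and the annotated starts may lie some bases away from those used in these cells.

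The median of the 56 members that could be tested was among the brightest signals on every array. In replicate order, their median log2 value was 11.53, 11.93 and 11.92 on the AI4 arrays; on the Rip-B7xAI4 arrays it was 11.63, 11.82 and 11.61. The median member stood between percentile 99.6 and 99.8 of all 19929 genes on each array. Not every member was bright: Rps4l averaged 6.03 over the 6 arrays, Rpl12 6.65 and Rpl30 7.10. The AI4 arrays averaged 11.80 ± 0.23 (SD, n = 3) and the Rip-B7xAI4 arrays 11.69 ± 0.12 (SD, n = 3), so the groups overlapped. Probes of different genes bind with different strength, and signal this bright may be compressed, so levels are not ranked between genes.

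Between the groups the family was almost level. None of the 56 tested members passed an adjusted p of 0.05 in limma with Benjamini-Hochberg adjustment over all 13950 tested genes, in either direction; over all genes 0.00717% passed as higher and 0% as lower. Without adjustment, 1 of 56 members had p under 0.05 and was higher in Rip-B7xAI4, against 5.56% of all genes, and 0 were lower, against 3.17% of all genes. The median difference of the members, Rip-B7xAI4 minus AI4, was -0.10 on the log2 scale, as large as the median of all tested genes (-0.10). By subunit the median was -0.09 for 22 small subunit genes and -0.13 for 34 large subunit genes. The difference was below 0 in 46 of 56 members (82.1%), against 61% of all genes. After median centring of the arrays it was below 0 in 34 of 56 members, and after quantile normalization in 50 of 56. Centring brought the median difference to -0.04 for the members and to -0.03 for all tested genes. After quantile normalization it was -0.16 for the members and -0.10 for all tested genes. The members' shared offset thus moved with the scaling, on centring together with all genes. Its size was under the SD between arrays of a group.

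**Figure D1:**
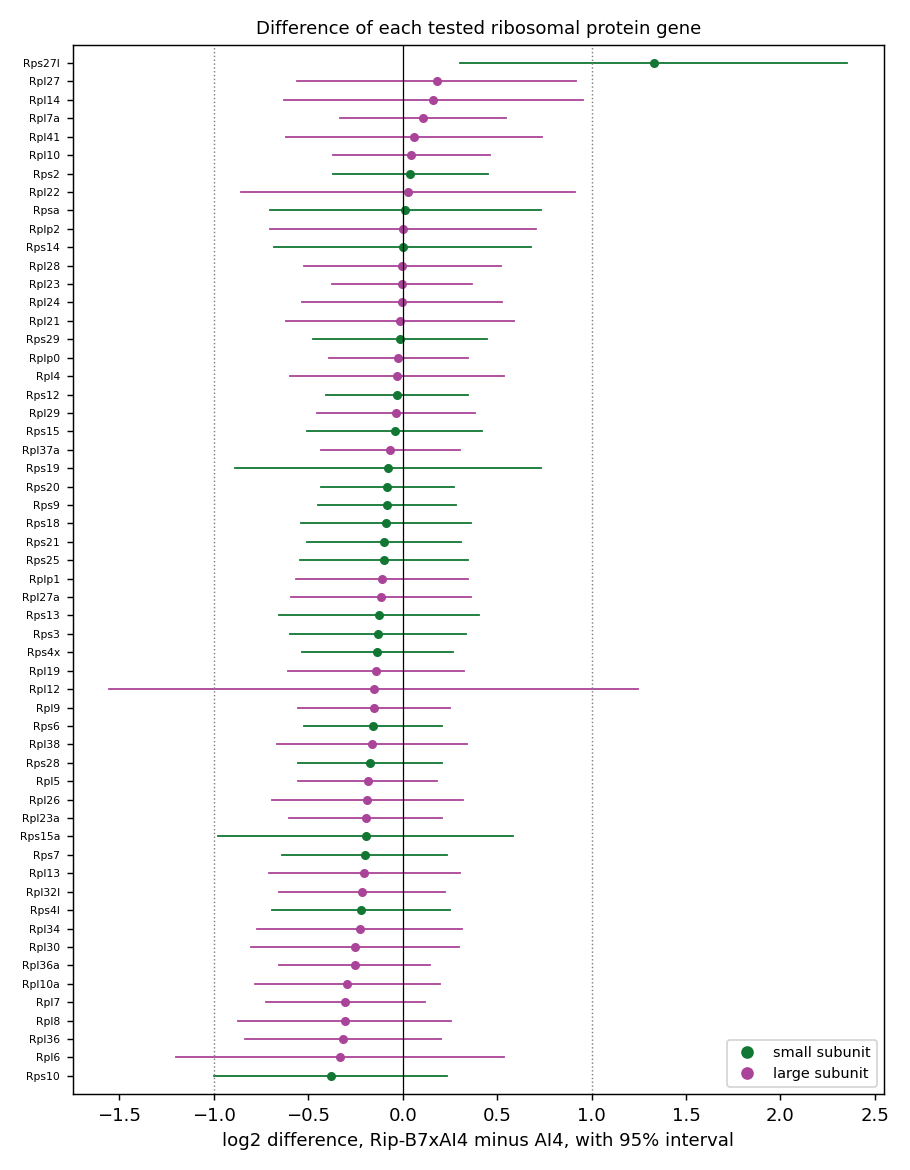
Log2 difference (Rip-B7xAI4 minus AI4, horizontal axis) of each of the 56 tested members, with its 95% interval from limma, in green for the small and purple for the large subunit. Rps27l stands alone at 1.33, and the other 55 lie between -0.38 and 0.18; dotted lines mark -1 and 1.

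For most members the measured difference had a narrow interval. For 52 of 56 members (92.9%) the 95% interval of the difference lay between -1 and 1 on the log2 scale, which is a change of less than a doubling in either direction; the same held for 65.6% of all tested genes. The exceptions were Rps27l, Rps10, Rpl6 and Rpl12. The median SE was 0.20 for members and 0.23 for all tested genes. An unadjusted p above the limit does not show that a member was equal in the groups, and differences within these intervals remain possible. The intervals hold for the measured signal: where bright signal is compressed, the message can differ by more.

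Rps27l, a paralog of the small subunit protein Rps27, was the member that set itself apart. Its log2 values were 6.32, 7.92 and 7.31 in AI4 against 8.51, 8.92 and 8.10 in Rip-B7xAI4. The lowest Rip-B7xAI4 array exceeded the highest AI4 array, and AI4 replicate 1 was lowest of all. The means were 7.18 ± 0.81 (SD, n = 3) and 8.51 ± 0.41 (SD, n = 3). The difference was 1.33 ± 0.43 (SE), with a 95% interval of 0.30 to 2.35 and an adjusted p = 0.509 in limma. It was the one member under the unadjusted limit of 0.05, and it did not pass the adjusted one. Without Rip-B7xAI4 replicate 2 the difference was 1.12 and no longer under the unadjusted limit. Groups that do not overlap in this direction were seen for 1 of 56 members, against 5.99% of all genes.

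The values of Rps27l were also set against the other members on the same array. Its value minus the median of the other 55 tested members was -5.22, -4.06 and -4.64 in AI4 against -3.13, -2.91 and -3.53 in Rip-B7xAI4. The gap was smaller on every Rip-B7xAI4 array. The means differed by 1.45. Since the other members were nearly level, this restates the separation above on another scale. An exact two-sided permutation test of this gap gave p = 0.1. That is the smallest value 3 against 3 arrays can give, so it adds nothing to the separation. Rps27 itself, which has only probes that list a second symbol, was not analysed here.

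**Figure D2:**
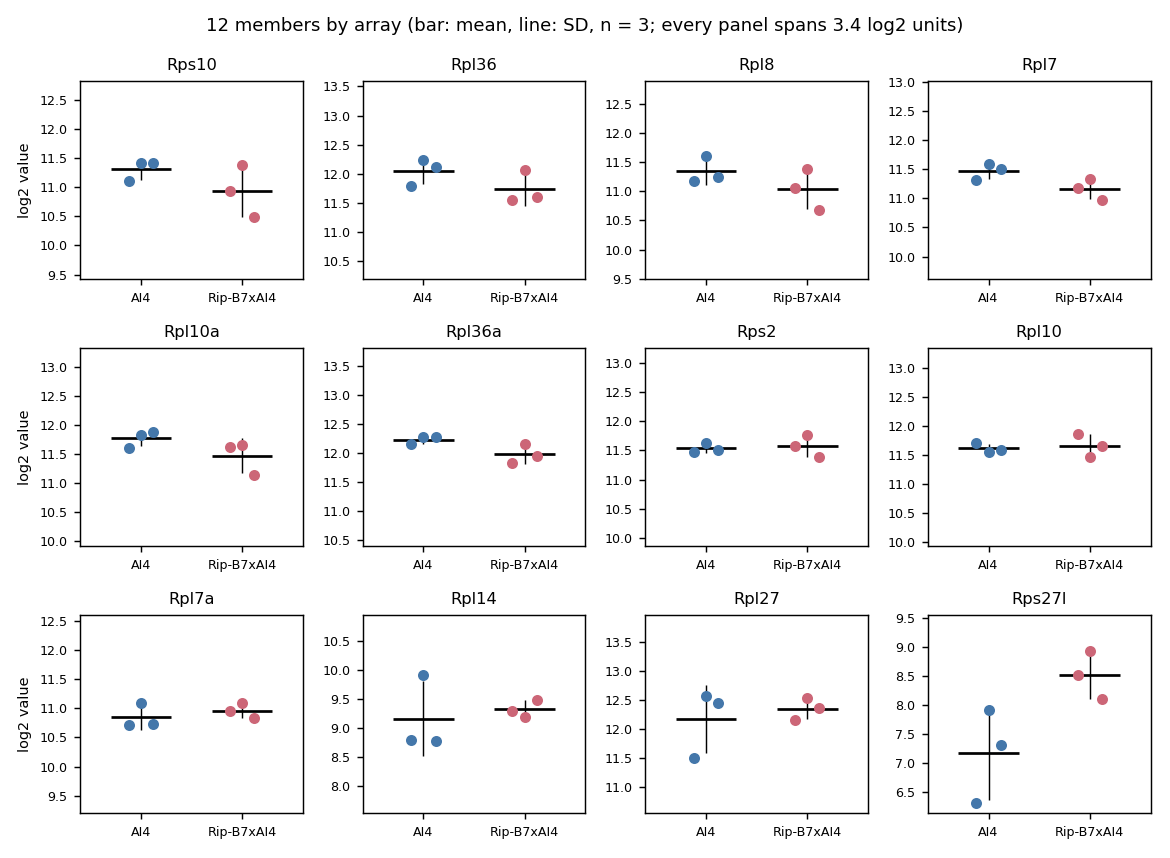
Log2 values (vertical axis, 3.4 log2 units in every panel) of 12 members in AI4 (blue) and Rip-B7xAI4 (red), with points for arrays, bars for the mean and lines for the SD of 3 arrays. The groups separate only in the panel of Rps27l, where AI4 ends at 7.92 and Rip-B7xAI4 begins at 8.10.

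The 6 members with the smallest p among those lower in Rip-B7xAI4 were Rpl7, Rpl36a, Rps10, Rpl36, Rpl10a and Rpl8. Their adjusted p in limma lay between 0.588 and 0.623. Rpl7, a large subunit protein that contacts ribosomal RNA, read 11.31, 11.58 and 11.50 in AI4 against 11.18, 11.34 and 10.98 in Rip-B7xAI4, a difference of -0.30 ± 0.18 (SE). Its groups met at 11.31 and 11.34. Rps10, which lies at the small subunit's mRNA entry side and is mutated in some patients with Diamond-Blackfan anemia, read 11.10, 11.42 and 11.42 in AI4. In Rip-B7xAI4 it read 10.93, 11.38 and 10.49. Its difference of -0.38 ± 0.26 (SE) was the most negative of the family, and it rests largely on replicate 3. Without that array it was -0.16, without replicate 1 it was -0.38, and without replicate 2, which lay among the AI4 arrays, it was -0.61. Rpl36a, which is encoded on the X chromosome, differed by -0.25 ± 0.17 (SE), Rpl36 by -0.32 ± 0.22, Rpl10a by -0.29 ± 0.21 and Rpl8 by -0.31 ± 0.24. In each of these 4 the groups overlapped. Rip-B7xAI4 replicate 3 also carried much of Rpl10a and Rpl8, which differed by -0.13 and -0.13 without it, and Rpl8 differed by -0.175 without AI4 replicate 2.

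The 6 members with the smallest p among those higher in Rip-B7xAI4 were Rps27l, Rpl7a, Rpl27, Rpl14, Rpl10 and Rps2. After Rps27l their differences were small. Rpl7a differed by 0.11 ± 0.18 (SE), Rpl27 by 0.18 ± 0.31, Rpl14 by 0.16 ± 0.33, Rpl10 by 0.05 ± 0.17 and Rps2 by 0.04 ± 0.17, with adjusted limma p between 0.796 and 0.926. Rpl27 read 11.50 in AI4 replicate 1 against 12.56 and 12.46 in replicates 2 and 3, and 12.17, 12.53 and 12.36 in Rip-B7xAI4. Its positive sign came from AI4 replicate 1: without that array the difference was -0.16.

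In the large subunit, the stalk that recruits the elongation factors is built from Rplp0, Rplp1 and Rplp2 on a base that includes Rpl12. On its brightest probe Rplp0 read 12.48, 12.63 and 12.53 in AI4 against 12.48, 12.62 and 12.47 in Rip-B7xAI4. The difference was -0.02 ± 0.15 (SE). Its dimmer probe varied more between arrays, at 10.03, 11.31 and 11.04 in AI4 against 10.66, 11.28 and 10.53 in Rip-B7xAI4, a difference of 0.03. Rplp1 differed by -0.11 ± 0.19 and Rplp2 by 0.00 ± 0.30. Rpl12 read 8.01, 5.73 and 6.44 in AI4 against 6.40, 7.15 and 6.17 in Rip-B7xAI4, and its difference of -0.15 ± 0.59 (SE) had the widest interval of the family (-1.55 to 1.24). This single probe varied widely within each group; 8 further probes list Rpl12 beside another gene and were not used.

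Rpl5, which with Rpl11 carries the smallest large subunit RNA into the ribosome, was 1 of 2 tested members whose Rip-B7xAI4 values all lay below AI4. It read 11.88, 11.98 and 12.03 in AI4 against 11.75, 11.87 and 11.72 in Rip-B7xAI4, a difference of -0.19 ± 0.15 (SE) with adjusted p = 0.638 in limma. The other was Rps20, a protein of the small subunit's head, at 12.62, 12.71 and 12.69 in AI4 against 12.60, 12.62 and 12.56 in Rip-B7xAI4 (-0.08 ± 0.15, adjusted p = 0.812 in limma). Such separation was seen for 2 of 56 members (3.57%), against 11.9% of all genes. Some proteins line the tunnel through which the new chain leaves or surround its exit. The 5 tested members of this kind, Rpl4, Rpl19, Rpl22, Rpl23a and Rpl26, had differences from -0.20 to 0.03. At the mRNA entry site of the small subunit, Rps2, Rps3 and Rps9 had differences from -0.13 to 0.04. Rps10, placed above at the entry side, differed by -0.38 and is not in this range. Rps6, which the S6 kinases phosphorylate, had the highest mean signal of the family. It read 12.64, 12.78 and 12.76 in AI4 against 12.55, 12.66 and 12.52 in Rip-B7xAI4, with overlapping groups and a difference of -0.16 ± 0.15 (SE). Rps15, near the decoding centre, differed by -0.04 ± 0.19 (SE). Of 18 listed genes mutated in Diamond-Blackfan anemia, 8 were members, and 0 of these had an unadjusted p under 0.05. The difference was below 0 in 7 of the 8, near the share of all tested members (82.1%, against 61% of all genes).

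Paralogs that are made chiefly in other tissues were dim. Rpl3l, a paralog of Rpl3 in striated muscle, had values between 5.24 and 5.60 over the 6 arrays, and Rpl10l, a paralog of Rpl10 in testis, between 5.14 and 5.87. Rpl39l, a paralog of Rpl39 in testis, averaged 4.75 ± 0.22 (SD, n = 3) on the AI4 arrays and 4.485 ± 0.17 (SD, n = 3) on the Rip-B7xAI4 arrays. These 3 fell in the dimmest 30% of genes, with means under 5.47, and were not tested. Rpl10l read 5.41, 5.87 and 5.40 in AI4 against 5.27, 5.33 and 5.14 in Rip-B7xAI4, without overlap and below the median of every array. Rps4l and Rpl32l passed the filter, with means of 6.03 and 8.78 over the 6 arrays, so Rpl32l was not dim. They differed by -0.22 ± 0.20 (SE) and -0.21 ± 0.18, with overlapping groups.

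Within each group most members shared the array at one end of the range. AI4 replicate 1 was the lowest AI4 array for 48 of 56 members (85.7%), against 30% of all tested genes. Replicate 3 was the lowest Rip-B7xAI4 array for 29 of 56 (51.8%, against 34.7%), and replicate 2 was the highest of that group for 47 of 56 members (83.9%), against 29.5% of all genes. Rps27l too was lowest in AI4 replicate 1 and highest, within its group, in Rip-B7xAI4 replicate 2. The mean of 9 CD8 T cell markers ran alongside, at 10.03, 10.63 and 10.65 in AI4 against 10.48, 10.77 and 10.12 in Rip-B7xAI4: AI4 replicate 1 was again the lowest and Rip-B7xAI4 replicate 2 the highest. The markers did not move as one. AI4 replicate 1 was the lowest AI4 array for 6 of the 9, among them Cd3d, Cd3e and Cd3g of the T cell receptor complex, but the highest for 2, Cd8a and Thy1, and Rip-B7xAI4 replicate 2 was the highest of its group for 6. Between the groups Cd8b1 averaged 11.10 ± 0.54 (SD, n = 3) in AI4 against 10.10 ± 0.61 (SD, n = 3) in Rip-B7xAI4, while Cd8a differed by -0.69 ± 0.35 and Cd3e by 0.88 ± 0.42, with adjusted p in limma between 0.559 and 0.582 for the 3. Of the 9, 1 (Cd8b1) was lower at an unadjusted p under 0.05, against 3.17% of all genes. The part of T cell content in the members' values was not tested. In RNA from sorted pools, fewer T cells and less RNA per T cell cannot be told apart.

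**Figure D3:**
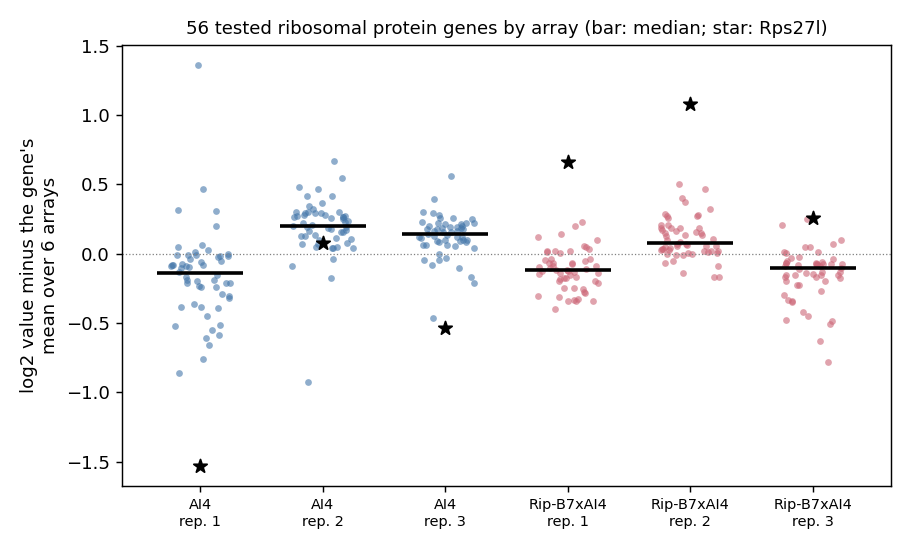
Each point is 1 of the 56 tested members, as its log2 value minus its own mean over the 6 arrays (vertical axis), by array (horizontal axis), in blue for AI4 and red for Rip-B7xAI4; bars mark medians and stars Rps27l. Most members lie low in AI4 replicate 1 and in Rip-B7xAI4 replicates 1 and 3, while Rps27l is low in AI4 replicate 1 and high in all Rip-B7xAI4 arrays.

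Markers of myeloid cells differed between arrays far more than the ribosomal genes. The mean of 16 myeloid genes was 6.58, 6.21 and 6.50 in AI4. Of the Rip-B7xAI4 arrays, replicates 1 and 3 stood at 9.39 and 9.44 and replicate 2 at 6.36. All 16 stood higher on average in Rip-B7xAI4, and 4 had an unadjusted p under 0.05 (25%, against 5.56% of all genes). Means of B cell markers (5.82 to 6.48) and acinar markers (6.07 to 6.19) stayed nearer the array medians of 5.94 to 6.10. The B cell mean was 6.15, 5.82 and 6.22 in AI4 against 6.41, 5.855 and 6.48 in Rip-B7xAI4, lowest of each group in replicate 2. Means of islet markers (5.17 to 5.71) lay below the median of their array. With replicate 2 as the only Rip-B7xAI4 array, the median difference of the members was 0.04 and 22 of 56 were below 0, against -0.10 and 46 of 56 with all arrays. The median of all tested genes was -0.10 with all arrays and -0.09 with replicate 2 alone. Rps27l differed by 1.74 ± 0.66 (SE) there and was not under the unadjusted limit, with adjusted p = 0.953 in limma. The part of myeloid cells in the small negative offset of the family was not tested further.

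**Figure D4:**
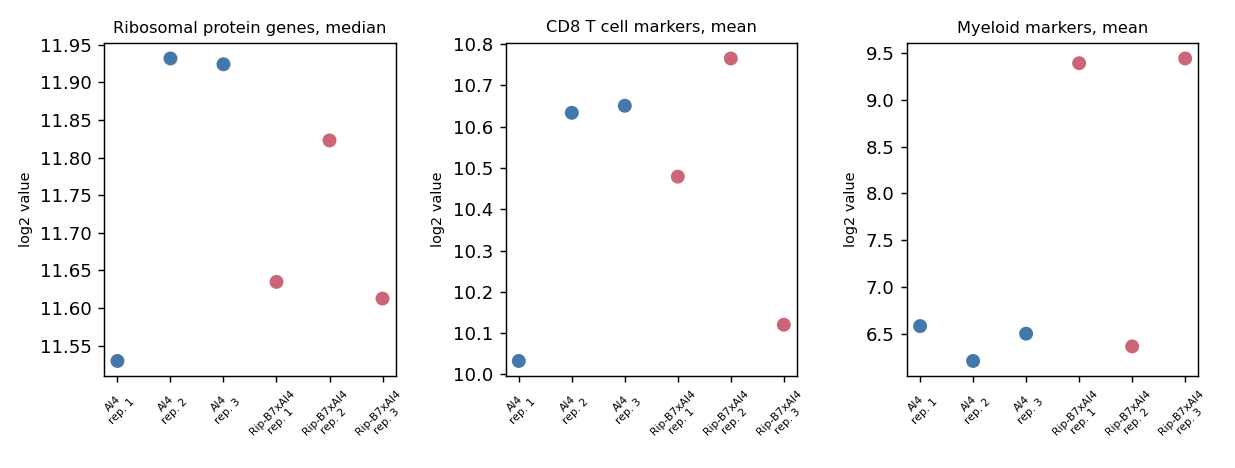
Log2 values by array, in blue for AI4 and red for Rip-B7xAI4, with a scale of its own in each panel: the median of the 56 tested members, the mean of 9 CD8 T cell markers and the mean of 16 myeloid markers. The ribosomal median spans 11.53 to 11.93, and the myeloid mean reaches 9.39 and 9.44 in Rip-B7xAI4 replicates 1 and 3 only.

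Probes add a further check, since ribosomal protein genes have many processed pseudogenes and probes to near-identical copies share signal. The 59 members had 215 probes with 1 symbol; 20 members had 1 probe and 39 had several. In 26 of the 39 all probes had a difference below 0, in 3 all were above 0, and in 10 the probes differed in sign. Those 10 were Rpl21, Rpl24, Rpl27a, Rpl28, Rpl7a, Rplp0, Rps12, Rps2, Rps9 and Rpsa. The median range between the probes of 1 gene was 0.07 on the log2 scale. Rpl7 had 4 probes between -0.31 and -0.28, and Rps10 3 probes between -0.44 and -0.38; within each gene the probes differed by less than the SE. Rps2 was the widest of the 10, from -0.58 to 0.04. Probes to copies of 1 gene are not independent measurements: in 5 members some probes had identical values on all 6 arrays. A further 16 ribosomal protein genes, Rpl3, Rpl11 and Rps23 among them, occur only on probes with several symbols and were not analysed here.

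The genes around the ribosome were read next, and none of them passed an adjusted p of 0.05. Of 136 tested genes in 6 lists, 5 (3.68%) had an unadjusted p under 0.05 and were higher in Rip-B7xAI4, against 5.56% of all tested genes, and 4 (2.94%) were lower, against 3.17%. Over the 6 lists together these shares are near or below those of all genes. The genes named are thus a description and show nothing about the lists. 3 of the ribosomal proteins outside the symbol rule were measured: Fau differed by -0.03 ± 0.21 (SE), Rps3a1 by -0.06 ± 0.17 and Rpl7l1, a paralog of Rpl7, by 0.42 ± 0.30. Of 15 other TOP messages, such as the elongation factor genes, 0 had p under 0.05 and the median difference was 0.07; Pabpc1, which binds poly(A) tails, differed by 0.44 ± 0.21 (SE). Of 14 RNA polymerase I genes, which make the ribosomal RNA precursor, 0 had p under 0.05 and the median was -0.11; Polr1b, its second largest subunit, differed by -0.56 ± 0.24 (SE), and by -0.34 without AI4 replicate 1.

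Of 67 tested ribosome assembly factors, 3 (4.48%) were higher and 3 (4.48%) lower at an unadjusted p under 0.05, against 5.56% and 3.17% of all genes, and their median difference was -0.01. Among the higher ones, Nmd3, the export adaptor of the large subunit, differed by 0.66 ± 0.21 (SE), Tsr1, a factor of small subunit maturation, by 0.76 ± 0.26 and Riok1, a kinase of the same pathway, by 1.54 ± 0.63. The lower ones were Imp3, a nucleolar factor of the small subunit, at -1.38 ± 0.48, Wdr12, of the PeBoW complex of large subunit assembly, at -0.60 ± 0.23 and Nle1 at -0.82 ± 0.34. Adjusted p for these 6 in limma lay between 0.493 and 0.566. Without AI4 replicate 1, Riok1 differed by 0.83, Imp3 by -0.90, Wdr12 by -0.39 and Nle1 by -0.47, and of the 6 only Nmd3 stayed under the unadjusted limit. Of 23 genes of mTORC1, Myc and TOP control, 1 (4.35%) was lower at that limit, against 3.17% of all genes. It was Eif4ebp1, a translation repressor that mTORC1 switches off, which differed by -0.50 ± 0.19 (SE). Of 15 ribosome quality control genes 2 (13.3%) were higher at that limit, against 5.56% of all genes, and the list was not tested. They were the rescue factor Hbs1l, by 0.78 ± 0.28 (0.52 without AI4 replicate 1), and the ubiquitin ligase Rnf10, by 0.39 ± 0.15.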

How the data were processed

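The deposited table holds normalized values of 28325 probes on 6 Affymetrix Mouse Gene 1.0 ST arrays. The authors made it with Affymetrix Expression Console, per the submitters' processing notes; its version and algorithm were not given in the sources used. No source states the scale of the deposited values, which lie between 2.29 and 13.6 and were taken as log2. They were used as deposited. The platform annotation gave 21760 probes 1 symbol, and all 59 members matched RefSeq gene IDs with the same symbol.

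The 30% of 19929 genes with the lowest mean (5979 genes, mean under 5.47) were not tested. The fit used limma 3.58.1 (lmFit, eBayes) in R 4.3.3 with group as the only term, two-sided, with Benjamini-Hochberg adjustment over 13950 genes. It was tested on simulated data. The labels call the arrays biological replicates, and their number limits the precision.

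The members and lists were chosen with earlier results of these data known. Named are the 6 members with the smallest p in each direction, the brightest and dimmest member, the paralogs, members by role, genes whose probes differ in sign, and up to 3 genes of each list by smallest p (all with p under 0.05 in the assembly list). The role groups are given by range where no value is of note. Rpl6, Rps20, Rpl30 and the single CD8 markers were picked after their values were seen. Other marker lists are summarised by their means.

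Same-numbered arrays of the groups are not stated to share an animal or a day, and their deviations from the group means correlated at -0.08, 0.06 and -0.22 over genes, so no pairing was used.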

Additional observations from a re-analysis of the deposited data

How the results depend on the processing

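No member passed an adjusted p of 0.05 under any of the 15 alternatives, where the smallest adjusted p of a member was 0.223 in limma (Rps27l, array weights). Rps27l stayed above 0 in all of them, from 0.90 to 1.74, with adjusted p from 0.223 to 0.953. Without 1 array at a time, 0 to 2 members were higher and 0 to 1 lower at an unadjusted p under 0.05: Rpl14 joined Rps27l when AI4 replicate 2 was left out. Over all 13950 tested genes, 765 to 1557 had p under that limit in these fits. With Rip-B7xAI4 replicate 2 left out, Rps27l no longer had p under that limit, and Rps10 was lower with p under it. After quantile normalization 1 member, Rpl7, was lower at that limit. The setting with Rip-B7xAI4 replicate 2 as the one array of its group, added after seeing the data and assuming that this array varies like those of AI4, gave 0 higher. The median difference of the members ran from -0.23 (without AI4 replicate 1) to 0.04 (replicate 2 alone), with -0.04 after median centring and -0.16 after quantile normalization. For all tested genes it ran from -0.11 (no filter on dim genes) to -0.03 (median centring).

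In the ribosome-related lists, leaving out 1 array gave 2 to 8 higher and 0 to 7 lower genes. The 8 and 7 came without AI4 replicate 3, where 1557 of all 13950 tested genes had an unadjusted p under 0.05, against 1218 with all arrays. Quantile normalization gave 1 higher and 8 lower, median centring 2 lower, and the replicate block 3 higher and 3 lower. Over all tested genes 1147, 1128 and 993 had p under that limit in these fits. Of the 9 genes under the unadjusted limit, 1 to 6 stayed under it without 1 array, and it was 1 (Nmd3) when either AI4 replicate 1 or Rip-B7xAI4 replicate 3 was left out. With the block 5 of the 9 stayed, and Riok1, Wdr12, Eif4ebp1 and Rnf10 did not. Among the members the block ended no call: Rps27l had an adjusted p = 0.487 in limma with it, and stayed under the unadjusted limit.

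Small differences turned sign: those of 26 of the 56 members with replicate 2 alone, 12 after median centring, 8 with array weights, and 6 each after quantile normalization and with the mean of probes. The values that follow cover only genes given with values of their own in the text, and not all of these. The signs of Rps6, Rps15 and the CD8 T cell markers were not followed over the alternatives. With replicate 2 alone these were Rpl10 (-0.15), Rpl12 (0.42), Rpl36 (0.0125), Rpl6 (0.24), Rpl8 (0.0328), Rplp0 (0.0714), Rps10 (0.0667), Fau (0.12) and Rpl7l1 (-0.13). With array weights they were Rpl10 (-0.0092), Rpl12 (0.71), Rpl14 (-0.29), Rplp2 (-0.12) and Rpl7l1 (-0.0493), and after quantile normalization Rpl14 (-0.0819), Rpl7a (-0.054), Rplp2 (-0.28) and Rps2 (-0.0208). With the mean of a gene's probes they were Rpl7a (-0.0744), Rplp0 (0.0051) and Rps2 (-0.17), and after median centring Rplp0 (0.0443), Fau (0.0407) and Rps3a1 (0.012). Without 1 array the range was -0.0563 to 0.14 for Rpl10, -0.65 to 0.49 for Rpl12, -0.0283 to 0.54 for Rpl14, -0.16 to 0.38 for Rpl27, -0.0696 to 0.0193 for Rplp0, -0.29 to 0.21 for Rplp2, -0.0551 to 0.13 for Rps2, -0.20 to 0.11 for Fau and -0.16 to 0.0093 for Rps3a1. The causes of these changes were not tested. The pseudocount alternative did not apply to log2 values, and no measure of background was used, so how far dim probes stand above it is not known.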
